A study of Mus musculus with 12 samples.

Results

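Serum amyloid A, the orosomucoids, lipocalin 2, haptoglobin and serum amyloid P component are plasma proteins that the liver releases during the acute phase response. Their genes, Saa1, Saa2, Saa3, Saa4, Orm1, Orm2, Orm3, Lcn2, Hp and Apcs, were followed library by library in liver RNA. These are 10 of the 51912 genes counted, found by symbol, and all 10 passed the expression filter that left 8594 genes for testing. The genes were chosen by their role and with their fold changes between these groups already known, so their levels, fold changes and calls are a description without a p-value.

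Liver RNA came from 12 adult male mice in 4 groups of 3. Wild-type (WT) mice received corn oil or CITCO, an agonist of the human constitutive androstane receptor (CAR). Mice humanised for CAR and for the pregnane X receptor (hCAR/hPXR), and mice that lack Car and carry human PXR (Car KO/hPXR), received CITCO. The labels give 10 mg/kg, injected intraperitoneally each day for 4 days with the mice killed on day 5, and the methods give 10 or 50 mg/kg. The methods place the altered lines on a C57BL/6NTac background, and the background of the WT mice is not given in the sources used here. Mouse Nr1i2 (Pxr) had 100 to 199 counts in the WT libraries and 0 to 2 in the other lines, and Nr1i3 (Car) had 104 to 287 against 0 to 6. Corn oil libraries from the humanised lines were not analysed here, so an effect of those genotypes and an effect of CITCO in them cannot be told apart. Libraries held 1167027 to 2341572 counts made from the 3′ ends of messages. The 10 hepatocyte markers were all detected. Their summed levels in CPM (counts scaled to a common library size by TMM) were 33437 to 38885 in WT corn oil and 32296 to 41291 in WT CITCO libraries. They were 26483 to 40136 CPM in hCAR/hPXR and 35886 to 38966 CPM in Car KO/hPXR libraries. Between hCAR/hPXR and WT CITCO, 8 markers were lower in hCAR/hPXR and 2 higher, with a median log2 fold change of -0.13.

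In the acute phase response, IL-6 family cytokines act on hepatocytes through gp130 and STAT3, and IL-1 and TNF act through NF-kB and C/EBP factors. Hepatocytes then secrete more of the rising proteins and less of others such as albumin. Saa1 and Saa2 encode the acute serum amyloid A proteins, apolipoproteins that travel on high-density lipoprotein. Saa4 encodes the constitutive form, and Saa3 is best known in mice from macrophages and fat as well as liver. Orm1, Orm2 and Orm3 encode alpha-1-acid glycoproteins, lipocalins that bind basic and neutral drugs. Lcn2 encodes a lipocalin that sequesters bacterial siderophores, Hp the carrier of free haemoglobin, and Apcs the pentraxin that is an acute phase protein in mice.

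The serum amyloid A genes lie together on chromosome 7 (GRCm38, GENCODE M21), and none of the 10 genes overlaps another gene. Saa3 (46711998 to 46715700), Saa4 (46727998 to 46732603) and Saa1 (46740497 to 46742980) are on the minus strand, and Saa2 (46751790 to 46754313) is on the plus strand. The orosomucoid genes are neighbours on the plus strand of chromosome 4, with Orm1 at 63344560 to 63348163, Orm3 at 63356162 to 63359511 and Orm2 at 63362449 to 63365878. Lcn2 is on the minus strand of chromosome 2 (32384633 to 32388252), Hp on the minus strand of chromosome 8 (109575128 to 109579172) and Apcs on the minus strand of chromosome 1 (172893961 to 172895041). Of the promoters, RefSeq windows (GRCm38.p6) were at hand for 8 genes, all but Orm1 and Hp. Saa1, Saa2, Saa3 and Orm2 are shown because their levels were among those that differed most between libraries, and Orm3 as the near copy of Orm2. Lcn2 also differed widely but is not shown, because its RefSeq window lies inside the gene as GENCODE M21 draws it. Each stretch holds 130 bases, from 195 to 66 bases before the RefSeq start, chosen after the matches were seen and holding most of those of these 5 genes. They are written 5′ to 3′ on the gene's strand, with capitals marking matches to the C/EBP letters TTNNGNAA on either strand.
Saa1, chr7:46743046-46743175, minus strand: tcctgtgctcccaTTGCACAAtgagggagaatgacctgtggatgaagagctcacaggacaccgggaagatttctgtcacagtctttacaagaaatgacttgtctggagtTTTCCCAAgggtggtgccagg
Saa2, chr7:46751638-46751767, plus strand: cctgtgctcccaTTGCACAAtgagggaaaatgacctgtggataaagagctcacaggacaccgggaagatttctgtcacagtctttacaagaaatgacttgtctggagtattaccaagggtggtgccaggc
Saa3, chr7:46715742-46715871, minus strand: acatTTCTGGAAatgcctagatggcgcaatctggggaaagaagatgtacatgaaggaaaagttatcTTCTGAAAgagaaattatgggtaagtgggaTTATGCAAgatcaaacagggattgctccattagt
Orm2, chr4:63362254-63362383, plus strand: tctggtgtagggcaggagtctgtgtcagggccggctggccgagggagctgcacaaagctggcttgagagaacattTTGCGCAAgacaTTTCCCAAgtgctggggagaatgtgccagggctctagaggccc
Orm3, chr4:63355963-63356092, plus strand: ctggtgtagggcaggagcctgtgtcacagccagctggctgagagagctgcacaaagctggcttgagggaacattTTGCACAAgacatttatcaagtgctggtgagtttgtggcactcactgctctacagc

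Over the 250 bases before the start, the Saa1 and Saa2 windows were 94.8% identical and those of Orm2 and Orm3 85.5%. Saa1 and Saa2 share a match spelled TTGCACAA at the far end of the printed stretch, and Orm3 has the same letters nearer its start. Saa3 has 3 matches in the stretch and a further one upstream. C/EBP letters were found in 7 of the 8 windows, all but Apcs, and in 36.8% of all 32851 promoters of that length. The 7 include Lcn2, whose window lies inside the gene in GENCODE M21. They also include the near copies Saa1 and Saa2, and Orm2 and Orm3, so the 7 are not independent windows. The STAT letters TTCNNNGAA were in 1 of the 8 (Apcs) against 7.02% of promoters, and TATAAA in 2 (Orm2 and Orm3) against 7.59%. Motifs were searched on both strands. The NF-kB motif was in none of the 8 and in 3.9% of promoters, which says only that its letters are not in these windows.

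Levels below are in the same unit, where TMM corrects for differences in library composition. They are not divided by gene length, so they compare libraries and not genes. The mean over the 3 hCAR/hPXR CITCO livers was the highest of the 4 groups for all 10 genes. WT corn oil livers had the lowest mean for 8 genes, and Car KO/hPXR CITCO livers for Saa4 and Hp. Together the 10 genes took 0.259% to 0.295% of the counts of the WT corn oil libraries, 0.31% to 0.888% with CITCO in WT mice, 0.717% to 1.86% in hCAR/hPXR and 0.289% to 0.357% in Car KO/hPXR mice. In bulk liver RNA, fewer cells of a type and less RNA per cell cannot be told apart.

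**Figure D1:**
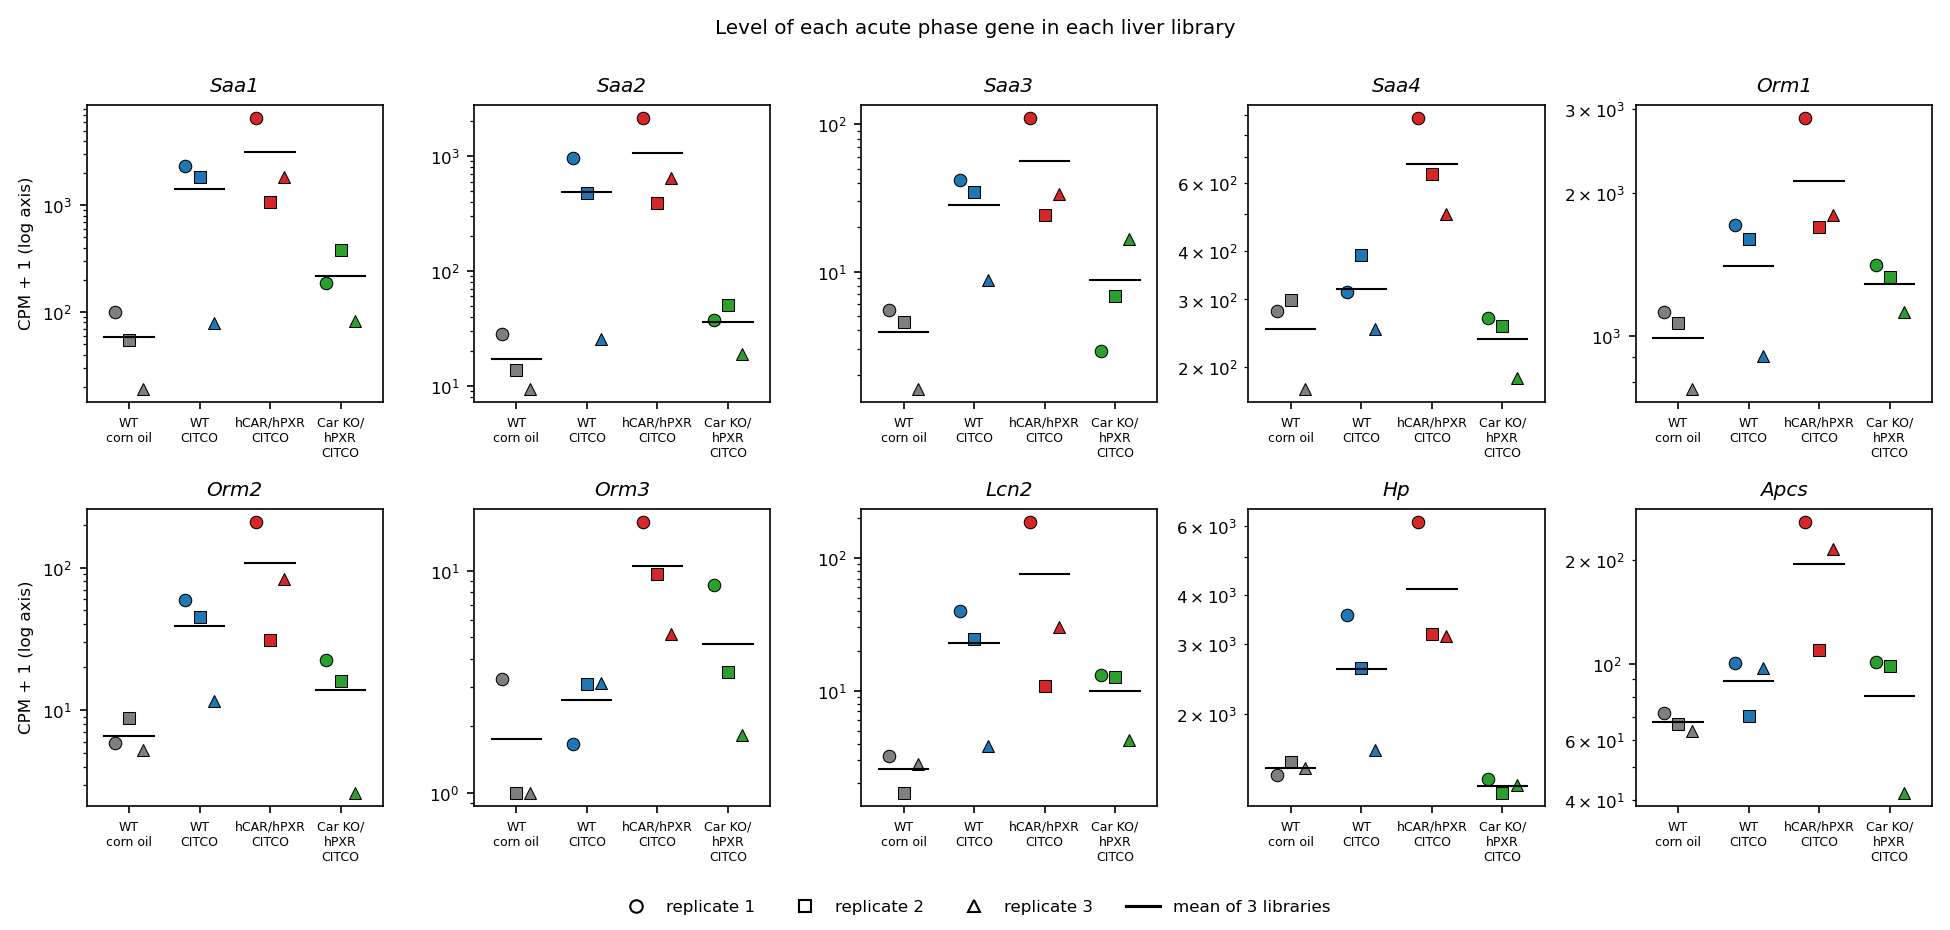
Level of each of the 10 genes (CPM + 1, log axis, 1 panel a gene with its own scale) in the 12 liver libraries by group; circles, squares and triangles are replicates 1, 2 and 3 and the bar is the mean of 3 libraries. Replicate 1 of hCAR/hPXR CITCO is the highest library for all 10 genes, and replicate 3 of WT CITCO is the lowest of its group for 8.

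Saa1 had 99.9, 53.6 and 18.1 CPM in the WT corn oil livers, and 2321, 1828 and 78.1 CPM in the WT CITCO livers. It had 6565, 1075 and 1830 CPM in hCAR/hPXR and 185, 381 and 82.1 CPM in Car KO/hPXR livers. All 3 hCAR/hPXR livers lay above every Car KO/hPXR and WT corn oil liver, while the third WT CITCO liver fell among the corn oil livers. The group means were 57.2 ± 41.0, 1409 ± 1179, 3157 ± 2976 and 216 ± 152 CPM (SD, n = 3) in the same order, and the highest library was 362 times the lowest. Against WT corn oil, the fitted log2 fold change was 4.60 ± 0.94 (SE) in WT CITCO, 5.76 ± 0.99 in hCAR/hPXR and 1.89 ± 0.87 in Car KO/hPXR livers.

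Saa2, the near copy of Saa1, had 27.3, 12.7 and 8.45 CPM in the WT corn oil livers and 956, 476 and 24.6 CPM in WT CITCO livers. The hCAR/hPXR livers had 2137, 387 and 638 CPM, and the Car KO/hPXR livers had 36.2, 50.1 and 18.1 CPM. Again the hCAR/hPXR livers did not overlap with the Car KO/hPXR or the corn oil livers, and the WT CITCO livers reached into both ranges. Car KO/hPXR CITCO was 3.80 ± 0.85 below WT CITCO on the log2 scale, and hCAR/hPXR CITCO was 1.12 ± 0.72 above it. The difference between the humanised lines was 4.92 ± 0.88, a fold of 30.3.

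Saa3 was counted rarely. It had 10, 5 and 1 counts in WT corn oil livers, 63, 49 and 11 in WT CITCO, 211, 40 and 39 in hCAR/hPXR, and 3, 7 and 19 in Car KO/hPXR livers. WT CITCO and hCAR/hPXR livers overlapped with each other, and the hCAR/hPXR livers lay above both other groups. The fitted log2 fold change was 4.19 ± 0.75 for hCAR/hPXR CITCO and 3.18 ± 0.79 for WT CITCO over WT corn oil. Among the Car KO/hPXR livers the third had the most Saa3 (15.6 CPM) and the least Saa4.

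Saa4 varied far less, with a highest library 5.05 times the lowest. Its levels were 279, 298 and 175 CPM in WT corn oil, 313, 391 and 250 CPM in WT CITCO, 884, 635 and 499 CPM in hCAR/hPXR and 268, 255 and 186 CPM in Car KO/hPXR livers. Every hCAR/hPXR liver was above the other 9 livers, which overlapped among themselves. hCAR/hPXR CITCO was 1.08 ± 0.23 above WT CITCO on the log2 scale, and Car KO/hPXR CITCO differed from WT corn oil by -0.08 ± 0.24.

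Summed Saa1 and Saa2 ran from 26.6 to 8703 CPM over the libraries, and the share of Saa2 in their counts from 11.6% to 31.8%. Saa2 made up 21.5%, 19.1% and 31.8% of the counts in WT corn oil livers, 29.2%, 20.6% and 24.0% in WT CITCO and 24.6%, 26.5% and 25.9% in hCAR/hPXR livers. The share was 16.4%, 11.6% and 18% in Car KO/hPXR livers, each below all 9 other libraries. The 95% Wilson interval of the lowest share, that of the second Car KO/hPXR liver (60 of 516 counts), was 9.14% to 14.7%. For the third Car KO/hPXR liver (22 of 122 counts) it was 12.2% to 25.8%, which covers the shares of several other libraries. For the third WT corn oil liver (14 of 44 counts) it was 20% to 46.6%. These intervals cover counting error only. Reads from the pair are split by estimation, since the last 300 bases of their transcripts are 92.4% identical, and the deposited values were not whole in 6 of 12 libraries. The part of this splitting in the share was not tested.

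**Figure D2:**
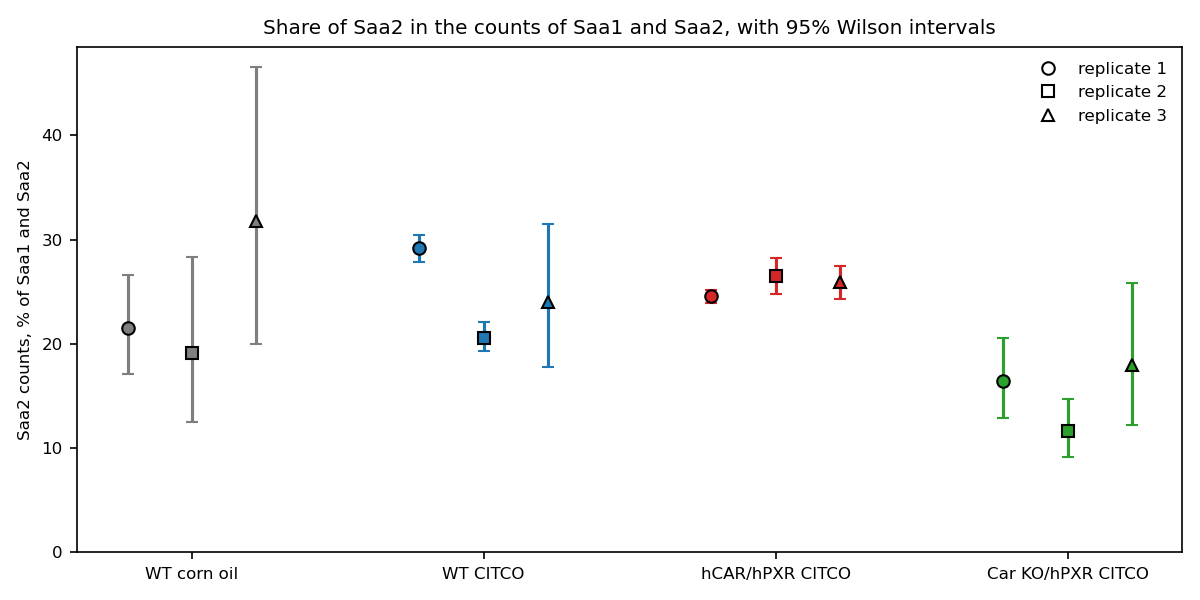
Percent of the summed Saa1 and Saa2 counts assigned to Saa2 in each of the 12 libraries, by group, with symbols for the replicates and bars for 95% Wilson intervals. The 3 Car KO/hPXR CITCO libraries, at 11.6% to 18%, are below the other 9.

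Orm1, the orosomucoid with the most counts here, had 1121, 1064 and 772 CPM in WT corn oil and 1710, 1594 and 906 CPM in WT CITCO livers. It had 2872, 1696 and 1792 CPM in hCAR/hPXR and 1407, 1326 and 1121 CPM in Car KO/hPXR livers. The hCAR/hPXR livers overlapped narrowly with WT CITCO and with neither other group. The log2 difference of hCAR/hPXR CITCO was 1.11 ± 0.25 from WT corn oil, 0.72 ± 0.24 from Car KO/hPXR and 0.60 ± 0.24 from WT CITCO.

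Orm2 had 11, 11 and 7 counts in WT corn oil livers and 90, 64 and 15 in WT CITCO. The counts were 400, 52 and 99 in hCAR/hPXR and 34, 18 and 2 in Car KO/hPXR livers. As CPM, the group means were 5.64 ± 1.87, 37.7 ± 24.6, 107 ± 91.0 and 12.8 ± 10.2 (SD, n = 3). The lowest WT CITCO liver (10.6 CPM) was above the highest corn oil liver (7.76 CPM) and below 2 of the Car KO/hPXR livers. Fitted log2 differences were 4.27 ± 0.72 for hCAR/hPXR CITCO and 2.77 ± 0.76 for WT CITCO over WT corn oil, and 3.02 ± 0.66 between the humanised lines.

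Orm3 was at or near the floor of 3 counts in most libraries. It had 5, 0 and 0 counts in WT corn oil, 1, 3 and 3 in WT CITCO, 30, 15 and 5 in hCAR/hPXR and 12, 3 and 1 in Car KO/hPXR livers. No fold is given for it, because every WT CITCO liver was at or under the floor. Orm1 took 99.3% to 99.5% of the counts of the 3 orosomucoid genes in WT corn oil livers, 96.7% to 98.6% in WT CITCO, 92.8% to 97.7% in hCAR/hPXR and 97.9% to 99.8% in Car KO/hPXR livers. Over their last 300 bases Orm1 and Orm2 transcripts are 97.7% identical, and every library had a count for each that was not whole. Reads of these genes can therefore have been split between copies, and the values of Orm2 and Orm3 are less certain than that of Orm1.

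Lcn2 had 5, 1 and 3 counts in WT corn oil and 60, 34 and 4 in WT CITCO livers. In hCAR/hPXR livers it had 358, 17 and 35 counts, and in Car KO/hPXR livers 19, 14 and 4. The CPM of the second hCAR/hPXR liver (9.84) was below 2 of the 3 Car KO/hPXR livers (12.1 and 11.7), so these groups overlapped. The fitted log2 difference over WT corn oil was 5.44 ± 1.05 in hCAR/hPXR, 3.64 ± 1.16 in WT CITCO and 2.39 ± 1.33 in Car KO/hPXR livers.

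Hp had 1397, 1510 and 1459 CPM in WT corn oil livers and 3553, 2616 and 1613 CPM in WT CITCO livers. It had 6134, 3183 and 3151 CPM in hCAR/hPXR and 1365, 1260 and 1315 CPM in Car KO/hPXR livers. Even the lowest WT CITCO liver was above the corn oil livers, and all Car KO/hPXR livers were below them. The group SD was 56.5 CPM with corn oil and 52.7 CPM in Car KO/hPXR mice, against 970 and 1713 CPM in the WT CITCO and hCAR/hPXR groups. On the log2 scale hCAR/hPXR CITCO was 1.66 ± 0.27 above Car KO/hPXR CITCO, which differed from WT corn oil by -0.15 ± 0.26.

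Apcs had 70.8, 65.6 and 62.8 CPM in WT corn oil, 99.3, 69.1 and 96.4 CPM in WT CITCO, 258, 109 and 214 CPM in hCAR/hPXR and 100.4, 97.7 and 41.1 CPM in Car KO/hPXR livers. The hCAR/hPXR livers were above all others, and the remaining 3 groups overlapped. Its log2 difference between hCAR/hPXR and WT CITCO was 1.13 ± 0.29, similar in size to that of Saa1 (1.16 ± 0.80) with a smaller error.

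The genes differed in how far their levels ranged. The highest library was 362 times the lowest for Saa1 and 253 times for Saa2, while for Saa4, Orm1, Hp and Apcs it was 3.72 to 6.27 times. No ratio is given for Saa3, Orm2 and Lcn2, whose lowest libraries had 1 or 2 counts and whose highest had 211, 400 and 358. Saa1, Saa2, Saa3, Orm2 and Lcn2 were all highest in the first hCAR/hPXR liver, and the third WT CITCO liver was the lowest of its group for each of them. That liver had 103 CPM of summed Saa1 and Saa2, against 3277 and 2304 CPM in the other WT CITCO livers and 26.6 to 127 CPM with corn oil. Within WT CITCO the SD of Saa1 (1179 CPM) was close to its mean (1409 CPM).

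Groups were compared with edgeR's quasi-likelihood test over all 8594 genes, with calls at a fold over 1.5 and an adjusted p (Benjamini-Hochberg) under 0.05. The comparison of hCAR/hPXR CITCO with WT CITCO is between mice with human and mice with mouse receptors under the same drug. In it, a difference of genotype without CITCO and a difference in response to CITCO cannot be told apart. All 10 genes were higher in hCAR/hPXR livers, with a median log2 fold change of 1.12 over the 9 genes other than Orm3, against 0.01 over all genes tested. Of the 10, Saa4 was called, and 0.407% of all genes were called, 0.256% as higher. Saa4, Apcs and Orm3 had libraries that did not overlap, as did 7.12% of all genes in that direction. For Orm3 the nearest livers held 5 counts (4.17 CPM, hCAR/hPXR) and 3 counts (2.11 CPM, WT CITCO), so its separation is close to the floor. Without the first hCAR/hPXR liver the median was 0.27, 7 of the 9 genes were higher and none was called. Calls over all genes fell from 35 to 25 in that fit. Without that liver the log2 fold change was 0.03 ± 0.81 for Saa1, 0.06 ± 0.72 for Saa2, -0.01 ± 0.58 for Saa3 and -0.22 ± 0.67 for Lcn2. Saa4 (0.82 ± 0.24) and Apcs (0.85 ± 0.31) changed less. The call of Saa4 was kept in 1 of 6 fits without 1 library, that without the third hCAR/hPXR liver, and Apcs was called in its place without the second.

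Car KO/hPXR CITCO against WT CITCO compares the same drug in mice that lack Car and also carry human in place of mouse PXR. The loss of CAR and the change of PXR cannot be told apart here. The paper cites work proposing that CITCO also acts on human PXR. The 9 genes other than Orm3 were lower in Car KO/hPXR livers, with a median of -1.25 against -0.004 over all genes. The log2 difference was -3.80 ± 0.85 for Saa2, -2.71 ± 0.85 for Saa1, -1.88 ± 0.72 for Saa3 and -0.98 ± 0.27 for Hp. None of the 10 was called by edgeR, where 0.256% of all genes were, and Saa2 and Hp (2 genes) were called by DESeq2. DESeq2 called 67 genes in all. Without the third WT CITCO liver edgeR called 3, Saa1, Saa2 and Hp, and its calls over all genes rose from 22 to 58. Hp was the only one of the 10 whose libraries did not overlap, against 6.77% of all genes in that direction.

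WT CITCO against WT corn oil compares the drug with vehicle in mice with the mouse receptors. All 10 genes were higher with CITCO, with a median of 2.77 over the 9 genes other than Orm3 and of 0 over all genes. Saa1 (4.60 ± 0.94) and Saa2 (4.84 ± 0.91) were called, and 0.233% of all genes were, 0.175% as higher. Saa3, Orm2, Lcn2 and Hp had libraries that did not overlap, as did 6.88% of all genes in that direction. Neither Saa1 nor Saa2 was among these, because the third WT CITCO liver was below the first corn oil liver for both. For Lcn2 the third WT CITCO liver held 4 counts (2.81 CPM) and the first corn oil liver 5 counts (2.24 CPM). Without that WT CITCO liver Saa1, Saa2 and Saa3 (3 genes) were called, and without any one of the other 5 livers of the 2 groups 0 were. Over all genes the calls were 54 without that liver and 6 to 17 without 1 of the other 5, against 20 in the full fit.

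Between the humanised lines, hCAR/hPXR against Car KO/hPXR CITCO, all 10 genes were higher with human CAR, with a median of 2.90 over the 9 genes other than Orm3 against 0.01 over all genes. Saa2 (4.92 ± 0.88), Orm2 (3.02 ± 0.66), Hp (1.66 ± 0.27) and Saa4 (1.51 ± 0.24) were called, and 0.582% of all genes were, 0.303% as higher. Libraries did not overlap for 8 of the 10 genes, all but Orm3 and Lcn2, against 8.01% of all genes in that direction. Without the first hCAR/hPXR liver the median was 1.26 over the 9 genes, all of them higher, and Saa4 and Hp remained called. The count was also lower, at 2, 3 and 0, without the first, the second and the third Car KO/hPXR liver and at 3 without the third hCAR/hPXR liver, and it was 8 without the second hCAR/hPXR liver.

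hCAR/hPXR CITCO against WT corn oil differs in both genotype and drug. The 9 genes other than Orm3 were called, where 0.989% of all genes were, 0.71% as higher. Their log2 fold changes ran from 1.11 ± 0.25 (Orm1) to 5.96 ± 0.93 (Saa2), with a median of 4.19. No hCAR/hPXR library overlapped a corn oil library for any of the 10 genes, against 8.49% of all genes in that direction. For Orm3 the nearest livers both held 5 counts (4.17 CPM in hCAR/hPXR and 2.24 CPM with corn oil). Without the first hCAR/hPXR liver the median was 3.17 and 5 genes were called, and without the second or the third corn oil liver 3 and 2 were. Calls over all genes also fell, from 85 to 48, 25 and 31 in these fits. Car KO/hPXR CITCO against WT corn oil gave 0 calls among the 10 by edgeR and by DESeq2, where edgeR called 0.0465% of all genes. The median was 1.04 over the 9 genes in the fit of all 12 libraries. In a fit of these 2 groups alone, 7 of the 10 passed the filter and 5 were higher, with a median of 0.38. Orm1 and Lcn2 were higher and Hp was lower without overlap, against 5.63% of all genes without overlap higher and 6% lower. For Orm1 the nearest livers of the 2 groups were both at 1121 CPM after rounding, so this separation is close to a tie. For Lcn2 the nearest livers held 4 counts (3.29 CPM, Car KO/hPXR) and 5 counts (2.24 CPM, corn oil). These comparisons share groups, so they are not independent of each other.

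**Figure D3:**
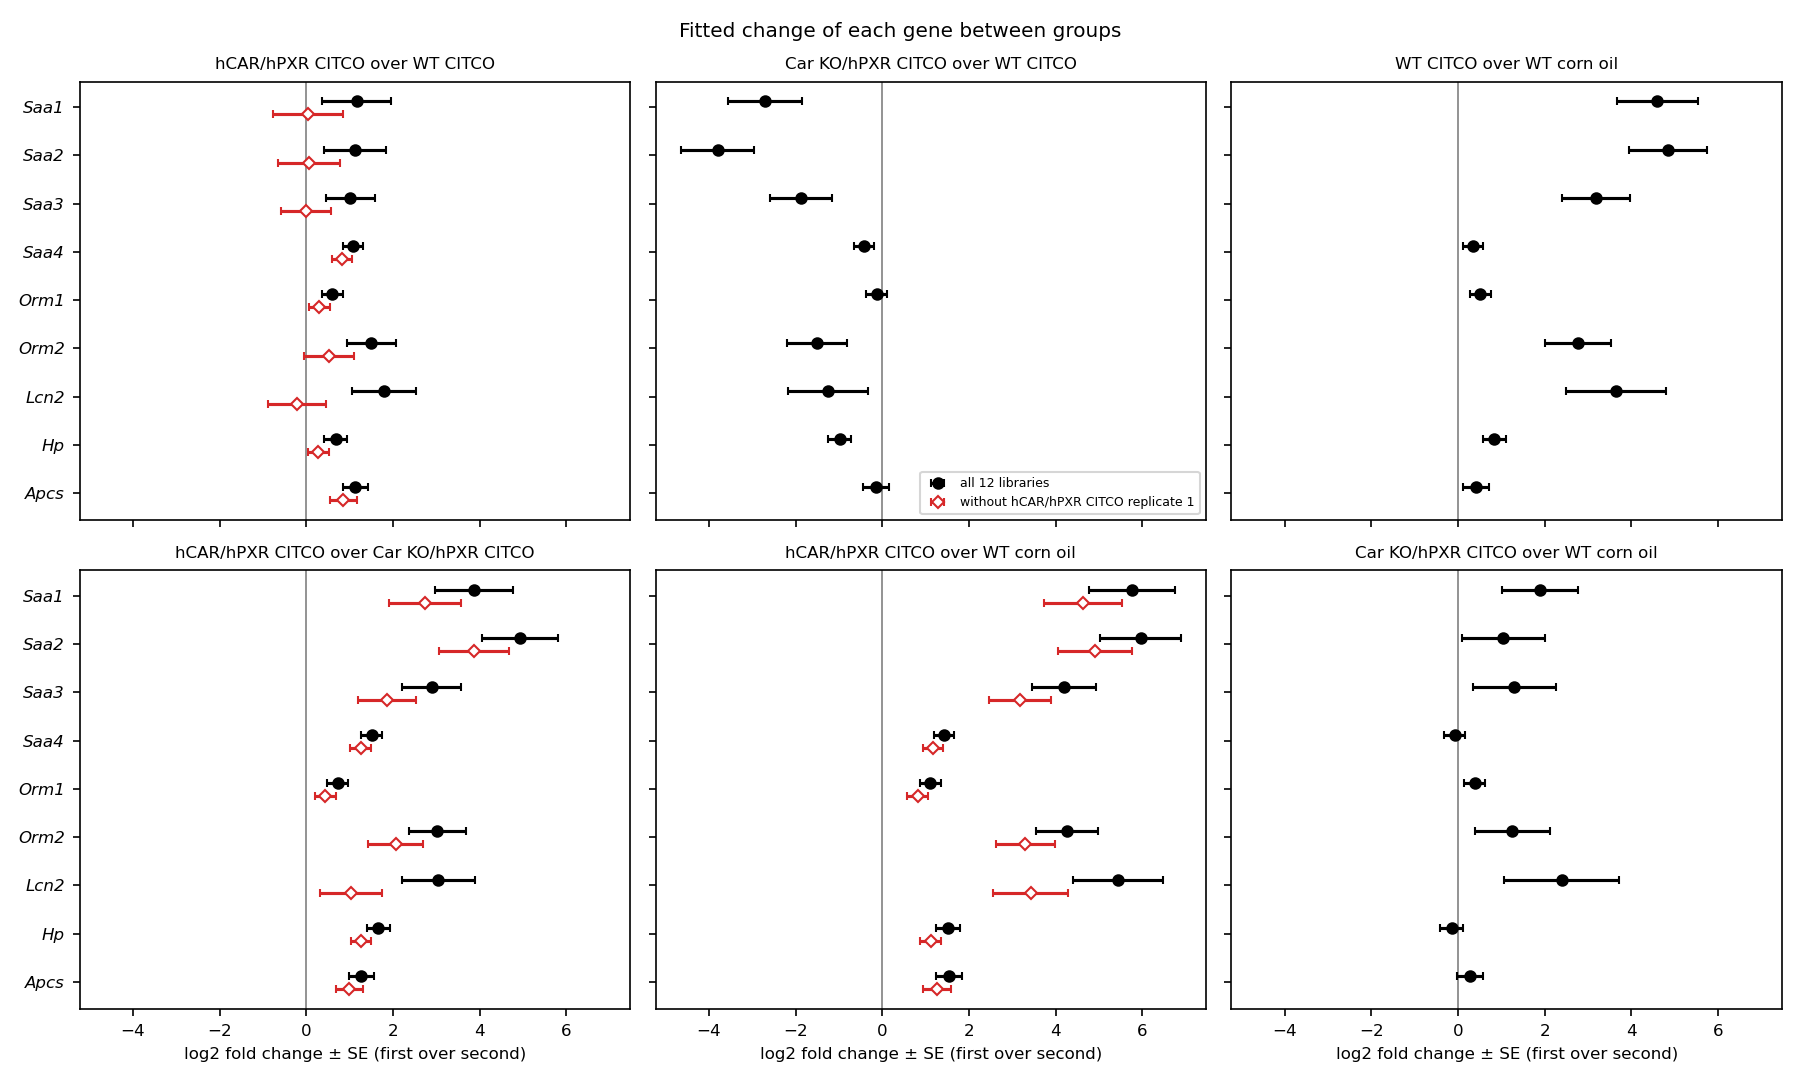
Fitted log2 fold change (first group over second) with its standard error for 9 genes in the 6 comparisons, Orm3 left out because it was near the floor. Black circles are from all 12 libraries and red diamonds are without hCAR/hPXR CITCO replicate 1; in the first panel Saa1, Saa2 and Saa3 then fall to about 0 while Saa4 and Apcs stay at 0.82 and 0.85.

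Of 70 other genes of the acute phase response, listed by role with earlier results of these data known, 60 passed the expression filter. Counts over this list are therefore a description and not a test of it. Adjusted p-values below come from the same edgeR fit, adjusted over all genes by Benjamini-Hochberg. The calls were 3 in hCAR/hPXR over WT CITCO, 4 in hCAR/hPXR over Car KO/hPXR CITCO and 9 in hCAR/hPXR CITCO over WT corn oil. In these, 22, 21 and 29 of the 60 had an unadjusted p under 0.05, against 8.81%, 10.6% and 10.9% of all genes. The other 3 comparisons gave 0 calls by edgeR, with 8 of 60 genes at an unadjusted p under 0.05 in WT CITCO over corn oil (9.13% of all genes) and 7 of 60 in Car KO/hPXR CITCO over WT CITCO (9.3%) and over WT corn oil (5.6%). DESeq2 called 0 in the first of these and 1 in each of the others.

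Among 18 other proteins that rise in an acute phase, 16 were higher in hCAR/hPXR than in WT CITCO livers, with a median log2 fold change of 0.57. Of all genes 0.256% were called as higher in that comparison, and 3 of the 18 rose. These were the metallothioneins Mt1 (2.83 ± 0.58, adjusted p = 0.0363) and Mt2 (3.45 ± 0.66, adjusted p = 0.0201), which bind zinc, and the protease inhibitor gene Serpina3m (0.74 ± 0.15, adjusted p = 0.037). Mt2 had 158, 18.3 and 12.7 CPM in WT corn oil, 67.5, 21.4 and 52.1 CPM in WT CITCO, 551, 248 and 749 CPM in hCAR/hPXR and 56.6, 40.9 and 21.4 CPM in Car KO/hPXR livers. Its highest liver was the third of the hCAR/hPXR group, not the first as for the 10 genes above. Serpina3m had 470 to 476 CPM in hCAR/hPXR and 248 to 322 CPM in WT CITCO livers, and also stood at 431 to 498 CPM in Car KO/hPXR livers. Each of these calls was kept in 1 of 6 fits that left out 1 library, and none of them without the first hCAR/hPXR liver.

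Over Car KO/hPXR CITCO, Mt1, Mt2 and Lbp rose in hCAR/hPXR livers. Lbp, the binding protein of bacterial lipopolysaccharide, differed by 1.09 ± 0.21 (adjusted p = 0.0192), a call kept in 3 of 6 fits without 1 library, and those of Mt1 and Mt2 were kept in 1 and 2. Lbp had 144, 91.4 and 102 CPM in hCAR/hPXR and 45.1, 59.3 and 55.0 CPM in Car KO/hPXR livers. Over WT corn oil, 17 of the 18 were higher and 7 rose, where 0.71% of all genes were called as higher. The 5 with the smallest p were Lbp, Mt2, Serpina3m, the fibrinogen chain Fgb (0.85, adjusted p = 0.0381) and Itih4 (1.1, adjusted p = 0.0387). The others, named after their values were seen, were the fibrinogen chain Fga (0.86, adjusted p = 0.0393) and the haem carrier Hpx (1.20, adjusted p = 0.0486). Of these 7 calls, Lbp kept 3 and Mt2 2 of 6 fits without 1 library, and the others kept 1. Without the first hCAR/hPXR liver none of the 7 was called. The 1 gene of the 18 that was lower, Hamp, was not called but its libraries did not overlap. It had 110, 56.7 and 276 CPM in hCAR/hPXR and 309, 406 and 311 CPM in WT corn oil livers.

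Steap4, a metalloreductase induced by inflammatory signals, was the only one of 7 feedback genes to be called. It had 11.6, 15.5 and 9.66 CPM in WT corn oil, 37.6, 46.3 and 13.4 CPM in WT CITCO, 82.4, 46.3 and 70.1 CPM in hCAR/hPXR and 19.1, 20.9 and 10.7 CPM in Car KO/hPXR livers. Again the third WT CITCO liver was the low one. Steap4 rose by 2.44 ± 0.37 on the log2 scale over WT corn oil (adjusted p = 0.00231), a call kept in all 6 fits without 1 library, and by 1.96 ± 0.37 over Car KO/hPXR CITCO (adjusted p = 0.0181), kept in 2 of 6 fits. Socs3, the inhibitor of gp130 signalling, differed by 2.22 ± 0.56 between WT CITCO and corn oil (adjusted p = 0.14) on 1 to 20 counts a library.

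None of 12 cytokine receptors and adaptors and none of 9 transcription factors was called by edgeR in any of the 6 comparisons. In hCAR/hPXR over WT CITCO livers, 1 of 12 and 3 of 9 had an unadjusted p under 0.05 and DESeq2 called 0. Over WT corn oil 3 of 12 and 5 of 9 did, and DESeq2 called Stat3, Cebpa and Bcl3. DESeq2 also called Lifr, Stat3 and Cebpa in hCAR/hPXR over Car KO/hPXR CITCO. In hCAR/hPXR over WT CITCO livers the largest log2 differences were 0.78 ± 0.39 for the IL-1 receptor Il1r1 (adjusted p = 0.59), 0.65 ± 0.30 for its adaptor Myd88 (adjusted p = 0.56), 1.11 ± 0.31 for Cebpb (adjusted p = 0.184) and 0.96 ± 0.30 for the NF-kB cofactor Bcl3 (adjusted p = 0.265). Stat3, chosen after its values were seen, had 137, 90.8 and 124 CPM in hCAR/hPXR livers and 56.6 to 86.3 CPM in the other 9, with a log2 difference of 0.74 ± 0.18 over WT corn oil (adjusted p = 0.0656).

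Of 8 proteins that fall in an acute phase, 6 were lower in hCAR/hPXR than in WT CITCO livers, and 0 were called by edgeR, with 1 of 8 at an unadjusted p under 0.05 and Igf1 called by DESeq2. Igf1, the growth factor secreted by liver, fell by 0.87 ± 0.15 against WT corn oil (adjusted p = 0.00721), with 531 to 711 CPM in hCAR/hPXR against 1054 to 1152 CPM, a call kept in 5 of 6 fits without 1 library. The receptors and carriers of the proteins had 0 calls among 6 genes by edgeR in each comparison. Cd163, the haptoglobin-haemoglobin receptor of macrophages, differed by -0.94 ± 0.40 (adjusted p = 0.49) and Pon1, an enzyme of high-density lipoprotein, by -0.65 ± 0.17 (adjusted p = 0.141) in hCAR/hPXR over WT CITCO livers, with 2 of the 6 at an unadjusted p under 0.05 and Pon1 called by DESeq2.

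**Figure D4:**
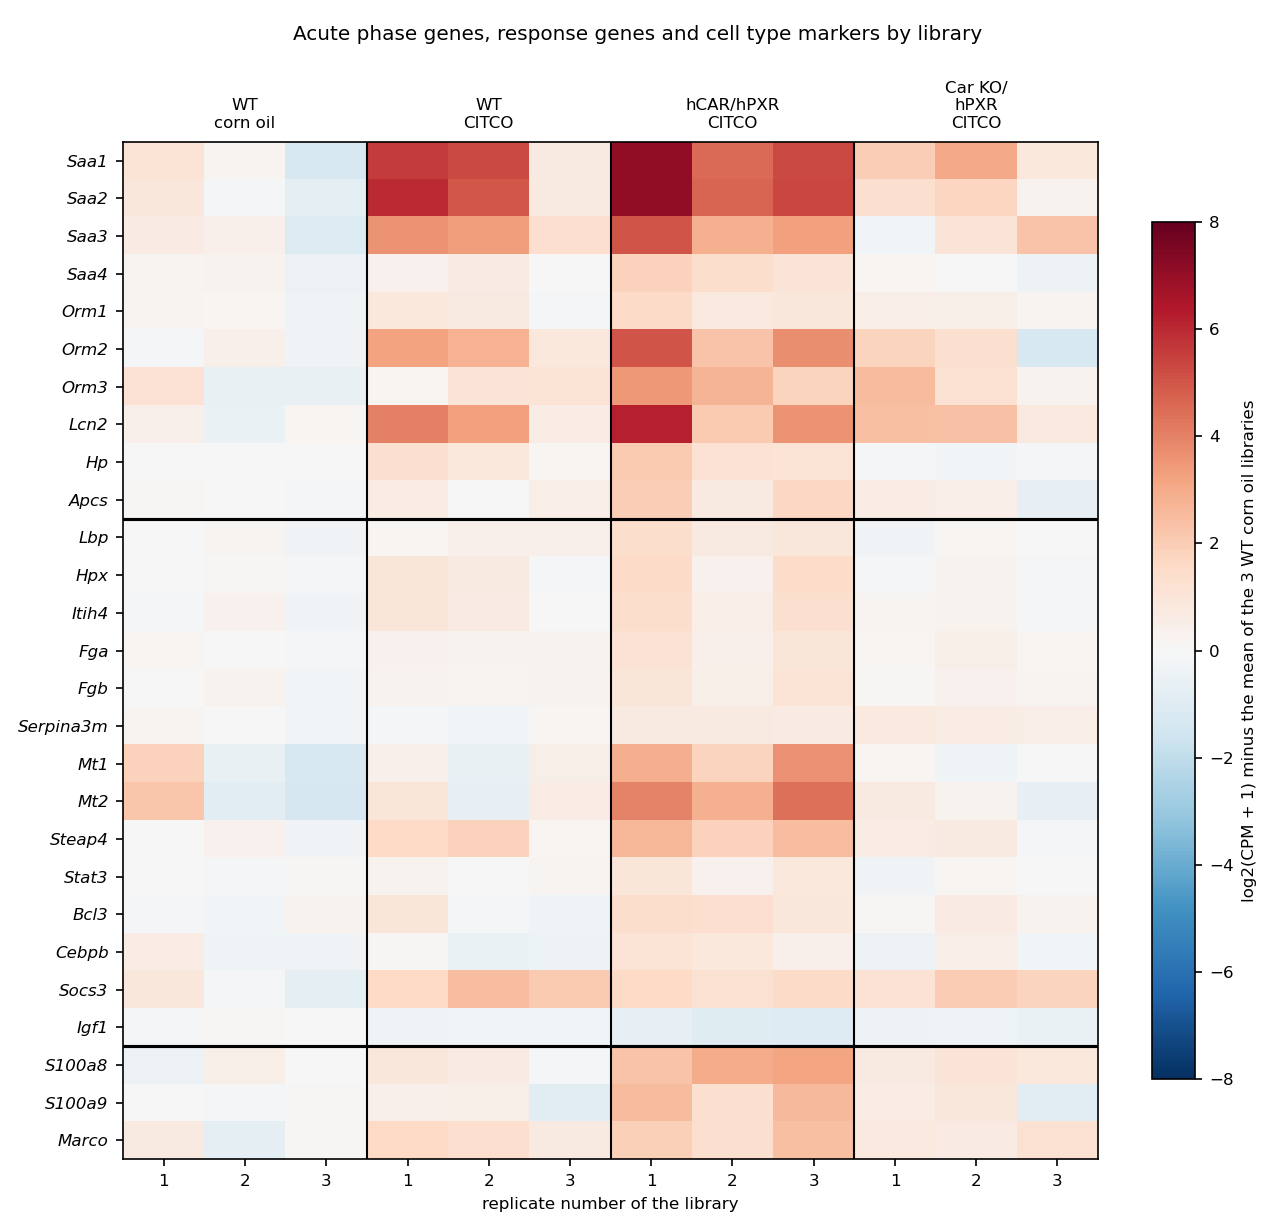
Colour gives log2(CPM + 1) in each library minus the mean of the 3 WT corn oil libraries, from blue (lower) to red (higher), for the 10 genes (top block), other acute phase response genes (middle) and cell type markers (bottom). Saa1, Saa2, Saa3, Orm2 and Lcn2 are pale in WT CITCO replicate 3 and darkest in hCAR/hPXR CITCO replicate 1, while Mt1 and Mt2 are darkest in hCAR/hPXR CITCO replicate 3.

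Lcn2 is also a granule protein of neutrophils, and Saa3 is made by macrophages, so markers of those cells were read in the same libraries. Of 12 neutrophil markers, S100a8 and S100a9 passed the filter, and Elane and Mmp8 were at 0 in all 12 libraries. The summed level of the list was 35.2 to 50.0 CPM in hCAR/hPXR livers, against 3.58 to 7.05 in WT corn oil, 4.92 to 11 in WT CITCO and 7.39 to 11.7 CPM in Car KO/hPXR livers. S100a8 rose in hCAR/hPXR over WT CITCO (2.54 ± 0.44, adjusted p = 0.00961), over Car KO/hPXR CITCO (2.16, adjusted p = 0.0242) and over WT corn oil (3.25, adjusted p = 0.00144), from 3 to 8 counts a library in the other 9 to 29, 44 and 34. S100a9 had 35, 12 and 22 counts in hCAR/hPXR livers and 1 to 6 in the other 9, and rose over WT corn oil (2.63 ± 0.59, adjusted p = 0.0387). Among the hCAR/hPXR livers S100a8 was lowest in the first by CPM, which was the highest for Lcn2, while S100a9, at 18.1, 6.94 and 18.4 CPM, was lowest in the second, as Lcn2 was. The granule genes Ngp, Ltf and Camp had at most 1 count in any library. The part of such cells in the Lcn2 level was not tested.

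All 12 Kupffer cell and macrophage markers passed the filter. Their summed level was 334 to 425 CPM in WT corn oil, 418 to 581 in WT CITCO, 542 to 642 in hCAR/hPXR and 448 to 476 CPM in Car KO/hPXR livers. In hCAR/hPXR CITCO over WT corn oil 10 of the 12 were higher. The scavenger receptor gene Marco alone was called there (1.82 ± 0.38, adjusted p = 0.0202), where 0.989% of all genes were called. In WT CITCO over corn oil 11 of the 12 were higher and 0 were called. In hCAR/hPXR over WT CITCO 6 were higher and 6 lower, with a median log2 fold change of -0.02 and 0 called. Adipocyte markers, of interest for Saa3, summed to 1.67 to 14 CPM over the 12 libraries, with none of 7 past the filter and Lep at 0 in every library. The part of these cells in the Saa3 level was not tested.

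As a comparison along the chromosome, the nearest tested genes on each side of the 10 were Nomo1 and Gtf2h1 around the serum amyloid A cluster, Col27a1 and Atp6v1g1 around the orosomucoids, 1110008P14Rik and Ptges2 around Lcn2, Dhx38 and Dhodh around Hp, and Crp and Ifi204 around Apcs. None of these 10 genes was called by edgeR in any of the 6 comparisons, with at most 1 at an unadjusted p under 0.05 in each. DESeq2 called Crp in hCAR/hPXR CITCO over WT CITCO and over WT corn oil and no other neighbour. The neighbours' log2 fold changes ran from -0.41 to 0.74 in hCAR/hPXR over WT CITCO livers, and the smallest adjusted p there (0.0846) was that of Crp, whose protein is a minor acute phase reactant in mice.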

How the data were processed

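RNAseq was made from liver of 12 male mice in 4 groups taken from the labels, with a QuantSeq 3′ kit. The authors trimmed reads with Trimmomatic 36 after FastQC 11.7, aligned them with STAR 2.5.2 to Ensembl GRCm38 and deposited expected counts per gene from RSEM 1.3, of which 13.793% of the values above 0 were not whole. A second table deposited by the authors holds variance-stabilised values, close to log2, of 17859 genes, used only as an alternative with limma.

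After rounding, expected counts were fitted with edgeR 4.0.16 in R 4.3.3 (expression filter, TMM, quasi-likelihood test, all 12 libraries, 1 mean a group). DESeq2 1.42.0 and limma 3.58.1 served as alternatives. Libraries held 1167027 to 2341572 counts, so that 3 counts, taken as the floor, correspond to 1.34 to 2.50 CPM, and precision is low for genes with few counts. Benjamini-Hochberg adjustment ran over all 8594 genes tested. Genes were called at an adjusted p under 0.05 and a fold over 1.5, and 6 comparisons were made. Each standard error is the log2 fold change divided by the square root of its F value. The test was tried on simulated data. The 10 genes and all lists were chosen with earlier results of these data known. Named are all 10 genes, the neighbours on the chromosome, the genes most like Saa1 and Saa2, and cell type markers. Of each response list, called genes are named, up to 5 by smallest p in a comparison. Where none was called, the 2 with the largest difference are named. Fga, Hpx, Hamp, Stat3, Cebpa and Lifr were added after their values were seen. Alternatives were other size factors, DESeq2, no expression filter, limma, fits of the 2 groups compared, a replicate block and leaving out each library. Promoters and motifs are from RefSeq tables for GRCm38.p6, and gene positions from GENCODE M21, another release than the authors'.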

Additional observations from a re-analysis of the deposited data

How the results depend on the processing

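The direction of the median, over those of the 10 genes that were tested, was the same in all 6 comparisons under every alternative. Counts of calls moved far more. For hCAR/hPXR over WT CITCO, 1 of the 10 genes was called. This became 0 with DESeq2's size factors, limma or the 2 groups alone, 8 without the filter and 0 to 1 with a library left out. Response genes went from 3 to 7 (DESeq2), 10 (no filter), 2 (2 groups) and 0 to 3 (a library left out). For Car KO/hPXR over WT CITCO, 0 of the 10 became 2 (DESeq2), 6 (no filter), 1 (block) and 0 to 3 (a library left out), and 0 response genes became 1, 3 and 0 to 1 under DESeq2, no filter and a library left out. For WT CITCO over corn oil, 2 became 6 (no filter), 0 (limma), 1 (2 groups) and 0 to 3 (a library left out), and 0 response genes became 2 (no filter) and 0 to 1. For hCAR/hPXR over Car KO/hPXR, 4 became 6 (DESeq2), 9 (no filter), 5 (block or 2 groups), 3 (limma) and 0 to 8 (a library left out). The 4 response genes became 12 (DESeq2), 13 (no filter) and 0 to 8 (a library left out). For hCAR/hPXR over WT corn oil, 9 became 10 (no filter), 8 (limma) and 2 to 9 (a library left out). The 9 response genes became 8 (DESeq2's size factors), 14 (DESeq2), 17 (no filter), 7 (block or limma), 4 (2 groups) and 2 to 13 (a library left out). For Car KO/hPXR over corn oil, 0 became 3 without the filter, and 0 response genes became 1 with DESeq2 or no filter. Without the filter 20067 genes were tested. Calls over all genes moved as well. In the 6 comparisons, in the order above, the main fit called 35, 22, 20, 50, 85 and 4 genes. The calls were 184, 227, 179, 233, 261 and 95 without the filter, and 64, 67, 44, 99, 130 and 12 with DESeq2. With a library left out they ran from 17 to 32, 5 to 58 and 6 to 54 in the first 3 comparisons. In the last 3 they ran from 10 to 58, 25 to 91 and 3 to 6. The cause of these shifts was not tested. With limma on the deposited values, the median over the 10 genes was 1.32 for hCAR/hPXR over Car KO/hPXR (2.28 with edgeR) and 1.52 over WT corn oil (3.76). With a library left out, the medians over the 10 ran from 1.26 to 2.54 and from 2.97 to 4.47, lowest without the first hCAR/hPXR liver, and from 1.73 to 3.22 for WT CITCO over corn oil, highest without the first corn oil liver.

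The main fit treated the libraries as unpaired. Same-numbered libraries of different groups had residual correlations of -0.058 to 0.074 (median 0.031, 18 pairs), against a median of -0.01 for different numbers. Of the 12 libraries, 8 were closest to their own number. Whether the replicate numbers mark a pairing of the samples was not settled by these values. With the number as a replicate block, 1, 1, 2, 5, 9 and 0 of the 10 genes were called in the 6 comparisons, in the order above. No called gene changed direction under any alternative. Among genes that were not called, Saa3 and Lcn2 in hCAR/hPXR over WT CITCO, Orm1 and Apcs in Car KO/hPXR over WT CITCO and Saa4 in Car KO/hPXR CITCO over corn oil changed sign with a library left out. Of the 10 genes most like Saa1 and Saa2, 1 was shared with the 10 found from values centred within groups. Genes under the floor of 3 counts, such as Orm3, are limited by depth.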

Other observations

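Among genes other than the 10, those whose level was most like summed Saa1 and Saa2 over the 12 libraries, by Spearman's rho of log2 CPM, were Il13ra1 (0.951), Wdr89 (0.944), Arf4 (0.937), Slc30a5, Ambp and Ifitm2 (0.93 each), Ifngr2 and Wdr45b (0.923 each), and Mcl1 and Rplp0 (0.916 each). This is a description over 12 libraries that share group differences. Il13ra1, a receptor chain for IL-13, had mean levels of 7.69 CPM in WT corn oil, 13.6 in WT CITCO, 23.2 in hCAR/hPXR and 7.4 CPM in Car KO/hPXR livers, and Ambp, the precursor of alpha-1-microglobulin, had 1946, 2292, 3141 and 2235 CPM. Of the 10 genes themselves, Orm1 (0.944), Orm2 and Lcn2 (0.937 each) followed Saa1 and Saa2 most closely, then Saa3 (0.846), Saa4 (0.804), Apcs (0.797), Hp (0.671) and Orm3 (0.592). With values centred within groups the closest other genes were C1ra (Pearson r = 0.911), Gapdh (0.906), Wdr45b (0.903) and Steap4 (0.901), so only Wdr45b was among the closest 10 by both measures.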
